A study of Mus musculus with 6 samples.

Results

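The nuclear genes that code for the mitochondrial respiratory chain and ATP synthase were examined in mouse embryos of 3 Stat3 genotypes, each embryo taken whole. They were taken by symbol: every gene whose name starts with Ndufa, Ndufb, Ndufc, Ndufs, Ndufv, Uqcr, Cox4 to Cox8 or Atp5, and the genes Sdha, Sdhb, Sdhc and Sdhd. Of 20659 named genes on the array, 93 met this rule, and 91 of them were measured. The 2 others were Cox7b2 and Cox8c, subunit isoforms known from testis, which were not well above background on any of the 6 arrays. All 91 measured genes were well above background on every array. The symbols starting with Ndufaf, which name assembly factors and not subunits of complex I, fall under the rule and account for 8 of the 91.

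Homozygous embryos carried the STAT3-K177K180R allele on both chromosomes and heterozygous embryos on 1, and wild-type embryos lacked it. The name of the allele gives arginine in place of lysine at 2 residues of STAT3, a transcription factor activated by cytokines. Per the labels, the embryos were taken at day 12 from the same womb, with 2 embryos for each genotype, and the study asked how the allele affects development. RNA of each whole embryo was amplified, labelled with the dye Cy3 and hybridised to 1 array of a mouse Agilent 1-colour design. The labels also write tumor tissue in the extraction protocol and put the word mutant in the wild-type titles. They also speak of 2 independent experiments for every genotype and name no parents, so whether all 6 embryos shared a litter is not clear, and p-values measure only the spread between these samples, which may be technical. Whole embryos hold many cell types, so fewer cells of a type and less RNA per cell cannot be told apart.

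The share of gene probes well above background was 73.4% and 70.7% on the homozygous arrays, 75% and 77.3% on the heterozygous arrays, and 76.2% and 75.4% on the wild-type arrays. The 2 homozygous arrays were on their own slide, scanned separately, and the other 4 arrays shared another slide, so the slide cannot be told apart from the homozygous genotype in any homozygous difference below. The negative control spots read 43.5 and 48 on the homozygous arrays, against 26 to 27 on the other 4. Only 2 arrays a genotype limit the precision of every value. Levels are given on a normalized log2 scale, on which 0 is the 75th percentile of the signal on the same array and 1 unit is a doubling of signal, and differences are differences of these levels. Levels of different genes were read by different probes and are not compared with each other.

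Oxidative phosphorylation runs in the inner mitochondrial membrane. Complex I takes electrons from NADH and complex II from succinate, complex III passes them on to cytochrome c, and complex IV hands them to oxygen. Complexes I, III and IV pump protons, and the ATP synthase, also called complex V, uses the returning protons to make ATP. A few subunits of complexes I, III, IV and V are coded by mitochondrial DNA, which was not analysed here, and all other subunits, with the whole of complex II, come from the nuclear genes described below. STAT3 itself has been reported in mitochondria, and the complex I subunit Ndufa13, also named GRIM-19, is known to bind it.

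The promoters of 4 ATP synthase genes are shown because their transcripts differed most from wild type in homozygous embryos or because they code for the same mature protein. Atp5g1, Atp5g2 and Atp5g3 each code for the c subunit of the membrane ring, and Atp5o codes for a peripheral stalk subunit. The sequences are from RefSeq on build GRCm38.p6, and each runs from 250 bases before to 50 bases after the annotated start on the minus strand. Capitals mark matches to the NRF-1 motif (GCGCA and GCGC with any base between them) or to the STAT motif TTCNNNGAA, searched on both strands.
Atp5g1: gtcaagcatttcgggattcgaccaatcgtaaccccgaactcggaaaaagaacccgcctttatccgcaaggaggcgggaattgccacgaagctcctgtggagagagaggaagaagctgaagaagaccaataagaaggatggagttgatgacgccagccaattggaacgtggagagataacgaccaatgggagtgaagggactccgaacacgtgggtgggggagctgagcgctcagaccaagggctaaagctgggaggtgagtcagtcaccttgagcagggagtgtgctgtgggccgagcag
Atp5g2: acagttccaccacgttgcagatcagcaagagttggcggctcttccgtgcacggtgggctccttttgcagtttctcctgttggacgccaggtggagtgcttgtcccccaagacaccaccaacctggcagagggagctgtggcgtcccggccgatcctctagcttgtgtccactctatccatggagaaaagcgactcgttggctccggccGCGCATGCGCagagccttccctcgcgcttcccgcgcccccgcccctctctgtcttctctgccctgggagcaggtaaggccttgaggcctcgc
Atp5g3: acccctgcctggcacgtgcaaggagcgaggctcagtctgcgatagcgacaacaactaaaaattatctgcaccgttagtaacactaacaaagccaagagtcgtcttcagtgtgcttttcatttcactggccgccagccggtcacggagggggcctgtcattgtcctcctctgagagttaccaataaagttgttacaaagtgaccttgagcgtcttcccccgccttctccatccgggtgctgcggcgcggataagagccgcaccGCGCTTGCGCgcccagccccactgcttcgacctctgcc
Atp5o: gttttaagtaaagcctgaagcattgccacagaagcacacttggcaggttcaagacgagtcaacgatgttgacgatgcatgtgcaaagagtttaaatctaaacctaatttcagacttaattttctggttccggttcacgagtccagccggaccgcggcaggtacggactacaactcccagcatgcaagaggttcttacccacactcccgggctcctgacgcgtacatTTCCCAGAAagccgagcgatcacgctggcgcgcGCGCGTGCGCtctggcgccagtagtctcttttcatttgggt
These windows lie at chr11:96075582-96075881, chr15:102670998-102671297, chr2:73911277-73911576 and chr16:91931581-91931880. The NRF-1 motif was found in the windows of Atp5g2, Atp5g3 and Atp5o and not in that of Atp5g1. The capitals TTCCCAGAA in Atp5o are its STAT match, and its NRF-1 match is GCGCGTGCGC.

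A promoter window was given for 76 of the 93 genes. The NRF-1 motif, named for a nuclear factor known to act on respiratory genes, stood in 19 of them (25%), against 5.19% of the windows of all 27025 genes in the table. The ETS motif CCGGAAG, which GABP is known to bind, was found in 19 windows (25%), against 9.93% of all genes. The YY1 motif GCCATNTT was found in 19 windows (25%), against 6.96% of all genes. The STAT motif stood in 5 windows (6.58%), against 9.55% of all genes, and these were Atp5d, Atp5o, Atp5pb, Ndufa8 and Ndufb6. Among genes with a window, the NRF-1 motif stood in 5 of the 10 that rose, in 4 of the 11 that fell and in 10 of the 54 that did not pass the test in homozygous against wild-type embryos, as described next. In the same 3 sets the ETS motif stood in 3, 3 and 13 windows, the YY1 motif in 2, 0 and 17 and the STAT motif in 0, 1 and 4. Matches of different motifs were counted whether or not they overlap, and the motifs were chosen after these values were seen.

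Against wild type, 68 of the 91 respiratory genes did not pass the test in homozygous embryos, while 11 were higher and 12 lower. The 23 genes passed limma's test at a Benjamini-Hochberg adjusted p below 0.05 over all 24569 genes tested. This share of 25.3% stood beside 29% for all genes tested (14.3% higher and 14.7% lower). At an unadjusted p below 0.05 there were 34 genes, against 43.4% of all genes. The median difference of the 91 genes was 0.04, against 0.08 for all genes tested. Both homozygous arrays lay above both wild-type arrays in 34 genes and below them in 26, together 65.9%, against 69.5% of all genes (39.5% above and 30% below). Differences of more than 2-fold were found in 2 genes (2.2%), against 11.1% of all genes, while 40.7% of the genes lay within 0.2 of wild type, against 29.6% of all genes. The count rests on the small number of arrays. Without the heterozygous embryos, which add only to the estimate of the spread, 13 genes passed (14.3%), against 22.5% of all genes. When either wild-type embryo was left out, few of the 91 genes still passed, and the share of all genes that passed fell too. Those that passed without a wild-type embryo were Atp5o, Cox6b1 and, without embryo 1, Atp5g3, so every other homozygous call among the 91 genes was lost when either wild-type embryo was left out.

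**Figure D1:**
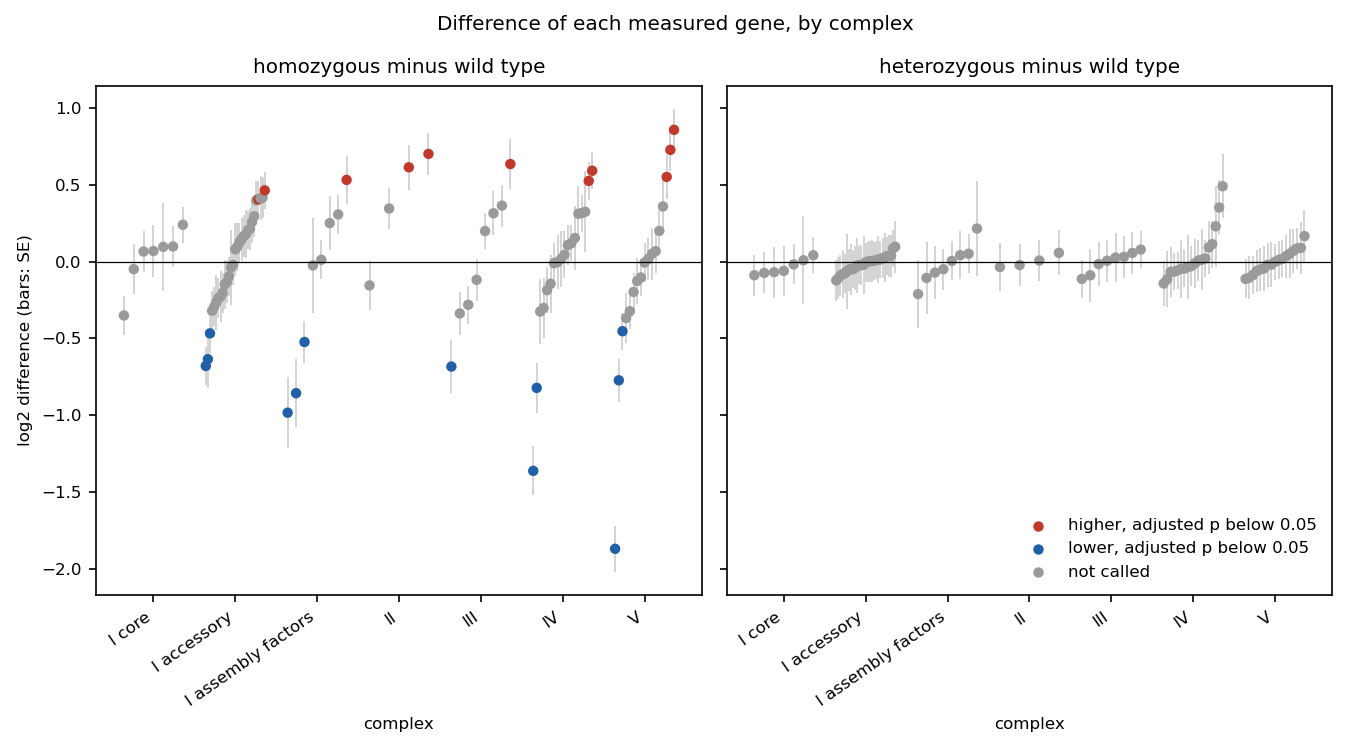
Log2 difference from wild type of each of the 91 measured genes (vertical axis, bars are SE), sorted within complex (horizontal axis), in homozygous embryos (left) and heterozygous embryos (right), with red and blue marking genes that passed the test as higher or lower. Coloured points lie on both sides of 0 in complexes I, III, IV and V of homozygous embryos, the only coloured points of complex II are red, and no gene passed in heterozygous embryos.

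By complex, 0 of 7 core subunits of complex I passed the test (limma, with 1 at an unadjusted p below 0.05). In the accessory subunits of complex I 2 of 29 rose and 3 fell, and in its assembly factors 1 of 8 rose and 3 fell. In complex II 2 of 4 genes rose and none fell, in complex III 1 of 8 rose and 1 fell, and in complex IV 2 of 18 rose and 2 fell. In the ATP synthase 3 of 17 rose and 3 fell. These counts stand beside 14.3% higher and 14.7% lower among all genes tested. In the order given, 0%, 17.2%, 50%, 50%, 25%, 22.2% and 35.3% of the genes passed, against 29% of all genes. Most of these groups are small. The median difference was 0.07 for the complex I core, 0.08 for the accessory subunits, −0.01 for the assembly factors, 0.48 for complex II, 0.04 for complex III, 0.03 for complex IV and −0.01 for complex V. In complex II, whose median rests on 4 genes read by their brightest probes, 3 genes lay above both wild-type arrays, where 39.5% of all genes did.

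The widest spread between subunits was in the ATP synthase. Atp5o, which codes for the stalk subunit OSCP that ties the catalytic head to the membrane part, read 1.85 and 1.55 in homozygous embryos, 3.58 and 3.46 in heterozygous embryos and 3.55 and 3.58 in wild-type embryos. Both homozygous embryos lay far below the other 4, which lay close together. Atp5o thus fell by 1.87 ± 0.15 (log2, SE, n = 2 per genotype), or 3.66-fold, with a limma adjusted p of 0.000983. It passed the test under all 17 alternative settings that could be run, with values between −2.02 and −1.72, and was the gene that fell most among the 91. Only 1 probe of Atp5o was kept, so the setting with the second brightest probe could not be run and no other probe checks the fall.

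The 3 genes for the c subunit did not move together. Atp5g3 read 5.41 and 5.42 in homozygous embryos, 4.73 and 4.56 in heterozygous embryos and 4.64 and 4.47 in wild-type embryos. It rose by 0.86 ± 0.13 (adjusted p = 0.00719 in limma's test), and the homozygous arrays did not overlap the others. Atp5g2 read 4.79 and 4.58 in homozygous embryos, 4.25 and 4.16 in heterozygous embryos and 4.03 and 4.24 in wild-type embryos. Its rise was 0.55 ± 0.15 (adjusted p = 0.0343), but a second probe of Atp5g2 read −0.08 (adjusted p = 0.66 with every kept probe tested), so the rise holds for 1 of 2 probes. That second probe was the brighter one in wild-type embryos, at 4.25 and 4.33. The probe used ranked first only through its homozygous values, so its choice was not independent of the rise. The rise of Atp5g2 passed under 8 of 18 alternative settings. Atp5g1 went the other way, with 3.43 and 3.19 in homozygous embryos, 4.02 and 3.94 in heterozygous embryos and 4.04 and 4.13 in wild-type embryos. Its fall was 0.77 ± 0.14 on the log2 scale (adjusted p = 0.0109), and both homozygous embryos lay below all others.

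Among the subunits of the catalytic head, Atp5b, the β subunit that carries the catalytic sites, read 5.36 and 5.11 in homozygous embryos, 4.59 and 4.50 in heterozygous embryos and 4.55 and 4.47 in wild-type embryos. It rose by 0.73 ± 0.14 (adjusted p = 0.0131). Its partner in the head, the α subunit Atp5a1, read 4.78 and 4.60 in homozygous embryos, 4.59 and 4.58 in heterozygous embryos and 4.69 and 4.70 in wild-type embryos. The homozygous and wild-type arrays overlapped, while both heterozygous arrays lay below all others. The homozygous difference from wild type was −0.01 with a 95% interval of −0.31 to 0.30. The central stalk genes Atp5c1, Atp5d and Atp5e had differences of −0.20, −0.13 and 0.20 by their brightest probes, and none passed the test. A second probe of Atp5c1 fell by 1.08 (limma adjusted p = 0.00276 with every kept probe tested).

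In the peripheral stalk, Atp5h, subunit d, read 4.18 and 4.19 in homozygous embryos, 4.67 and 4.64 in heterozygous embryos and 4.59 and 4.69 in wild-type embryos. It fell by 0.45 ± 0.12 (adjusted p = 0.0353), and its second probe fell by 0.62 ± 0.19 (adjusted p = 0.0498 with every kept probe tested). The other stalk genes did not pass: Atp5pb, subunit b, differed by −0.10 and Atp5j, coupling factor 6, by 0.05. By their brightest probes, the small membrane subunits Atp5j2, Atp5md, Atp5l, Atp5mpl and Atp5k lay between −0.37 and 0.36 and none passed. Both homozygous arrays lay below both wild-type arrays for Atp5j2 and Atp5md and above both for Atp5k. A second probe of Atp5k fell by 0.90 (limma adjusted p = 0.0125 with every kept probe tested).

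**Figure D2:**
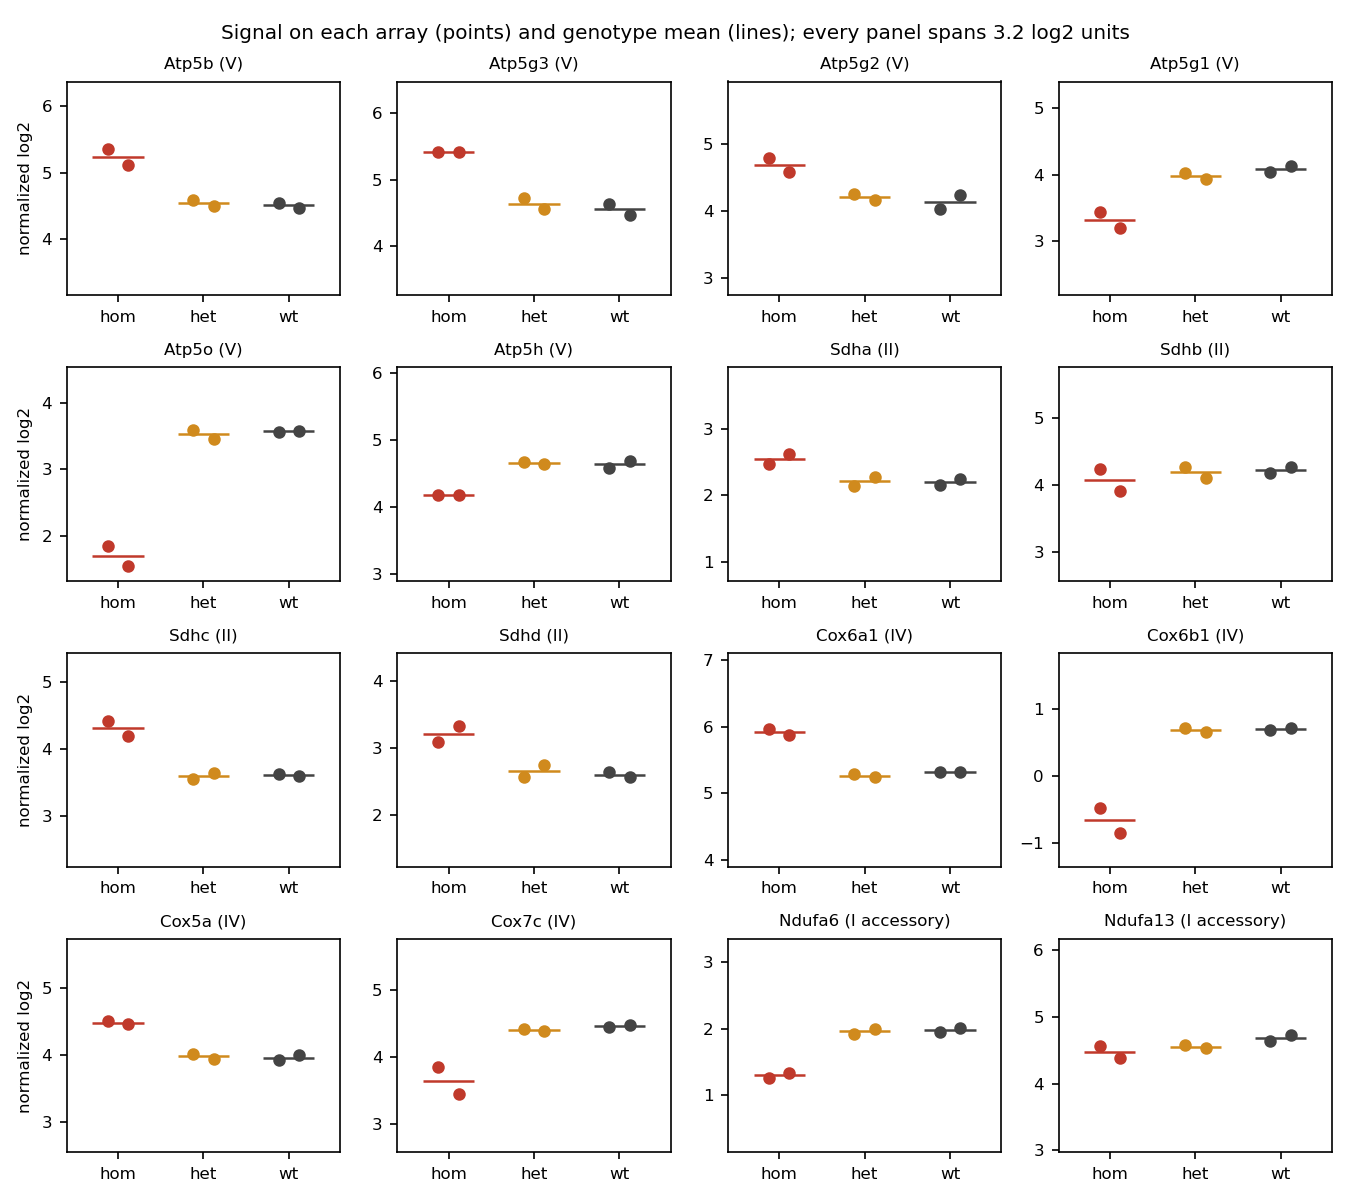
Normalized log2 signal (vertical axis, 0 is the 75th percentile of the array) of 16 genes on each array (points) with the mean of each genotype (lines), for homozygous, heterozygous and wild-type embryos from left to right. Every panel spans the same range, so the drop of Atp5o and Cox6b1 in homozygous embryos can be read against the smaller rises of Atp5b, Atp5g3 and Sdhc, and the heterozygous points lie close to the wild-type points throughout.

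Complex II, the succinate dehydrogenase that also belongs to the TCA cycle, rose in its membrane anchors by the brightest probe of each. Sdhc read 4.42 and 4.20 in homozygous embryos, 3.54 and 3.63 in heterozygous embryos and 3.63 and 3.59 in wild-type embryos. Its rise was 0.70 ± 0.14 (adjusted p = 0.0133). The second anchor, Sdhd, read 3.09 and 3.33 in homozygous embryos, 2.56 and 2.75 in heterozygous embryos and 2.63 and 2.56 in wild-type embryos. It rose by 0.61 ± 0.15 (adjusted p = 0.0258), and both homozygous embryos lay above all others for both anchors. For the flavoprotein Sdha, the values were 2.48 and 2.62 in homozygous embryos, 2.14 and 2.28 in heterozygous embryos and 2.15 and 2.25 in wild-type embryos, a difference of 0.35 ± 0.13 that missed the threshold (adjusted p = 0.0956). The iron-sulphur subunit Sdhb overlapped between genotypes, at −0.15 ± 0.16. The second probes went lower for both genes that had one: that of Sdhc read 0.08 (adjusted p = 0.669 with every kept probe tested) and that of Sdhb fell by 0.53 (adjusted p = 0.0268).

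In complex IV, cytochrome c oxidase, 2 subunits fell and 2 rose. Cox6b1, a subunit on the outer face of the complex, read −0.48 and −0.86 in homozygous embryos, 0.72 and 0.65 in heterozygous embryos and 0.68 and 0.71 in wild-type embryos. The 4 arrays of the other genotypes lay close together, and both homozygous arrays lay far below them. Cox6b1 fell by 1.36 ± 0.16, or 2.57-fold (adjusted p = 0.00283). Like Atp5o, it had only 1 kept probe and passed under all 17 alternative settings that could be run. Cox7c, a small membrane subunit, read 3.84 and 3.44 in homozygous embryos, 4.41 and 4.38 in heterozygous embryos and 4.45 and 4.48 in wild-type embryos, and fell by 0.82 ± 0.16 (adjusted p = 0.0145). Its 2 other probes disagreed with each other, at 0.31 (adjusted p = 0.107) and −1.41 (adjusted p = 0.0156) with every kept probe tested, and the table of genes used for names lists a pseudogene copy of Cox7c that a probe may read too.

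Cox6a1 and Cox5a moved upwards. Cox6a1 read 5.96 and 5.87 in homozygous embryos, 5.28 and 5.25 in heterozygous embryos and 5.32 in each wild-type embryo. It rose by 0.59 ± 0.12 (adjusted p = 0.0155), although after quantile normalization the rise was 0.36 (adjusted p = 0.0602). Cox5a read 4.50 and 4.46 in homozygous embryos, 4.02 and 3.94 in heterozygous embryos and 3.92 and 4.00 in wild-type embryos, a rise of 0.53 ± 0.12 (adjusted p = 0.0236). The homozygous arrays of both genes lay above all others. Cox4i1, the subunit through which ATP is known to inhibit the enzyme, differed by 0.12, with a 95% interval of −0.17 to 0.41. Ndufa4, once counted with complex I and now placed in complex IV, differed by 0.11 ± 0.13.

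Several complex IV subunits have tissue-restricted isoforms. The muscle isoforms Cox6a2, Cox7a1 and Cox8b differed from wild type in homozygous embryos by 0.31, 0.04 and 0.15, and the ubiquitous isoforms Cox7a2 and Cox8a by −0.14 and 0.32. None of these passed the test. Cox4i2, an isoform known from lung, read −0.12 and −0.22 in homozygous embryos, 0.15 and −0.30 in heterozygous embryos and −0.12 and −0.21 in wild-type embryos, with no separation. Cox6b2, a testis isoform of the subunit whose common form is Cox6b1, differed by 0.02 ± 0.18 while Cox6b1 fell. Cox7a2l, which helps complexes III and IV associate, and Ndufa4l2, a hypoxia-induced relative of Ndufa4, differed by −0.19 and 0.32 and did not pass.

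Complex III, the cytochrome bc1 complex, had 1 gene in each direction. Uqcr11, a small subunit, read 3.92 and 3.54 in homozygous embryos, 3.16 and 3.07 in heterozygous embryos and 3.13 and 3.05 in wild-type embryos, a rise of 0.64 ± 0.16 (adjusted p = 0.0311). Uqcr10, another small subunit, read 3.23 and 2.80 in homozygous embryos, 3.65 and 3.56 in heterozygous embryos and 3.66 and 3.73 in wild-type embryos, a fall of 0.68 ± 0.17 (adjusted p = 0.0295). Neither overlapped with wild type. The 2 other probes of Uqcr10 read −0.30 (adjusted p = 0.285 with every kept probe tested) and 0.25 (adjusted p = 0.196), so its fall holds for 1 of 3 probes. The fall of Uqcr10 passed under 8 of 18 alternative settings and the rise of Uqcr11 under 10 of 17. The core proteins Uqcrc1 and Uqcrc2 differed by 0.31 and −0.28, the Rieske iron-sulphur protein Uqcrfs1 by −0.34 and the hinge protein Uqcrh by 0.36, and none passed.

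In complex I the core subunits, which carry the flavin and the iron-sulphur clusters, lay between −0.35 and 0.24 of wild type, and none passed the test. Ndufv2 had the smallest p among them, with 3.14 and 2.95 in homozygous embryos, 3.41 and 3.35 in heterozygous embryos and 3.39 and 3.40 in wild-type embryos. Its difference of −0.35 ± 0.13 missed the threshold (adjusted p = 0.088), and the homozygous arrays did not overlap the wild-type arrays. Ndufs1, which holds several of the clusters, differed by 0.07 with a 95% interval of −0.26 to 0.39.

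Of the accessory subunits, Ndufa6 read 1.26 and 1.34 in homozygous embryos, 1.92 and 2.00 in heterozygous embryos and 1.95 and 2.01 in wild-type embryos, and fell by 0.68 ± 0.12 (adjusted p = 0.0108). Both homozygous embryos lay below all others. Ndufb2 fell by 0.64 ± 0.19 (adjusted p = 0.0479) and Ndufa2 by 0.47 ± 0.12 (adjusted p = 0.0359). Ndufa11 and Ndufa1, both in the membrane arm, rose by 0.46 ± 0.12 (adjusted p = 0.033) and 0.41 ± 0.12 (adjusted p = 0.046). Close to the threshold on the other side, Ndufc2, Ndufb11 and Ndufa7 differed by 0.40, 0.42 and 0.41, with adjusted p of 0.0535, 0.0611 and 0.0735 in limma's test. Ndufa13 read 4.57 and 4.38 in homozygous embryos, 4.57 and 4.54 in heterozygous embryos and 4.63 and 4.72 in wild-type embryos. Both homozygous arrays lay below both wild-type arrays, but the difference of −0.20 ± 0.13 did not pass (adjusted p = 0.279).

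Assembly factors of complex I, which build the enzyme and are not part of it, included some of the wider falls. Ndufaf5, known to modify the core subunit Ndufs7, read −1.96 and −2.62 in homozygous embryos, −1.30 and −1.52 in heterozygous embryos and −1.24 and −1.37 in wild-type embryos. It fell by 0.98 ± 0.23 (adjusted p = 0.0251), while a much dimmer second probe read 0.21 (adjusted p = 0.288 with every kept probe tested). Ndufaf1, a factor for the membrane arm, read 0.21 and −0.32 in homozygous embryos, 0.39 and 0.79 in heterozygous embryos and 0.77 and 0.83 in wild-type embryos, and fell by 0.86 ± 0.22 (adjusted p = 0.0322). Ndufaf2, a late-stage factor, fell by 0.52 ± 0.13 (adjusted p = 0.0317). Ndufaf3 rose by 0.53 ± 0.16 (adjusted p = 0.047) and passed under 7 of 17 alternative settings, whereas Ndufaf4, which works with Ndufaf3, differed by 0.31 ± 0.13 (adjusted p = 0.114).

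Heterozygous embryos stayed close to wild type. None of the 91 genes passed the test, none had an unadjusted p below 0.05, and 0% of all genes tested passed, with 2.26% of all genes at an unadjusted p below 0.05. The differences ran from −0.21 for Ndufaf1 to 0.49 for Cox8b, with a median of −0.01, and 86 genes (94.5%) lay within 0.2 of wild type, against 83.1% of all genes. Both heterozygous arrays lay to 1 side of both wild-type arrays for 22 genes (24.2%, 6 higher and 16 lower), against 26.9% of all genes. The error allows more than these estimates: the 95% interval of Atp5a1, for example, ran from −0.42 to 0.19. The p-values do not show that the genotypes were alike.

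The widest heterozygous differences were in 2 muscle isoforms of complex IV, Cox8b and Cox6a2. Cox8b read −0.33 and −0.92 in heterozygous embryos, against −1.19 and −1.04 in wild-type embryos, a difference of 0.49 ± 0.21 (adjusted p = 1 in limma's test). Cox6a2 read 0.68 and 0.26 in heterozygous embryos, against 0.14 and 0.10 in wild-type embryos, a difference of 0.35 ± 0.18 (adjusted p = 1). For both genes the first heterozygous embryo was the higher one. The muscle isoform Cox7a1 differed less, by 0.11 ± 0.15. All 8 skeletal muscle markers and all 8 cardiomyocyte markers had a higher mean in heterozygous than in wild-type embryos, by medians of 0.35 and 0.32, although none passed the test (limma, with 2 and 3 of them at an unadjusted p below 0.05). All 6 erythroid markers had a lower mean in heterozygous than in wild-type embryos, by a median of −0.22, and none passed either (2 at an unadjusted p below 0.05). The mean level over skeletal muscle markers was 0.93 and 0.58 in heterozygous embryos and 0.42 and 0.27 in wild-type embryos, and over cardiomyocyte markers 1.43 and 1.12 in heterozygous embryos and 1.09 and 0.81 in wild-type embryos. Their part in the differences of Cox8b and Cox6a2 was not tested.

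Homozygous and heterozygous embryos differed in 15 of 91 genes (16.5%, 7 higher and 8 lower), against 24% of all genes (10.7% higher and 13.3% lower), and 34 had an unadjusted p below 0.05, against 40.3% of all genes. This comparison shares the homozygous arrays with the one against wild type, so it is no independent check. Atp5o fell by 1.83 ± 0.15 (adjusted p = 0.00117), Cox6b1 by 1.35 ± 0.16 (adjusted p = 0.00344) and Ndufaf5 by 0.88 ± 0.23 (adjusted p = 0.0399). Atp5g3 rose by 0.77 ± 0.13 (adjusted p = 0.0117), Sdhc by 0.72 ± 0.14 (adjusted p = 0.0143) and Atp5b by 0.69 ± 0.14 (adjusted p = 0.0181). Arrays of these genotypes did not overlap in 62.6% of the genes, against 64.1% of all genes. With only these 2 genotypes in the fit the count was 6 (6.59%, against 13% of all genes). It also moved when 1 embryo was left out, as did the share of all genes that passed.

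Probes of the same gene gave unlike values in homozygous embryos. Among the measured genes, 24 had 2 or more kept probes, 55 probes in all. At least 1 probe passed in 12 of these genes, against 2024 of the 4435 genes with such probes on the whole array. Every probe passed in 1 direction in 1 gene, Atp5h (158 of the 4435), and no gene had probes called in opposite directions (173 of the 4435). With every kept probe tested, 27.8% of all probes passed. The 2 brightest probes had differences of the same sign in 8 of 24 genes (33.3%), against 54.1% of the 4435. The gap between the lowest and highest probe had a median of 0.63 in homozygous against wild-type embryos (0.49 for all such genes), and of 0.07 in heterozygous against wild-type embryos.

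In several genes the homozygous difference of another probe lay far below that of the probe used for the gene. For Uqcrq, a complex III subunit, the brightest probe read 3.31 and 3.06 in homozygous embryos and 3.32 and 3.29 in wild-type embryos, while the second read 0.85 and 0.37 in homozygous embryos and 2.65 and 2.69 in wild-type embryos. The first differed by −0.12 and the second by −2.06 (adjusted p = 0.00134 with every kept probe tested). Uqcrb, of the same complex, had probes at 0.20, −0.41 and −1.84, of which the last 2 passed. The second probes of Atp5c1, Ndufa5 and Atp5k read −1.08, −0.92 and −0.90 and passed, where the brightest probes of these genes read −0.20, 0.14 and 0.36 and did not. In wild-type embryos the second probe of Atp5c1 was about as bright as the first, at 3.32 and 3.26 against 3.29 and 3.40. The same held for Atp5k, at 4.14 and 4.03 against 3.94 and 4.28. These 2 probes thus ranked second through their low homozygous values. In heterozygous embryos the same probes lay within 0.13 of wild type for Uqcrq, Uqcrb, Atp5c1 and Ndufa5. The table of genes used for names also lists 15 pseudogene copies of 10 of the 93 genes, among them 4 of Atp5k, 2 of Uqcrh, 2 of Atp5l and 1 each of Cox7c, Atp5c1 and Cox5b, and a probe may read such a copy too, so the values of these 10 genes are uncertain. Only copies named by the symbol of the gene with the suffix ps were counted, so the other genes may have copies under other names.

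**Figure D3:**
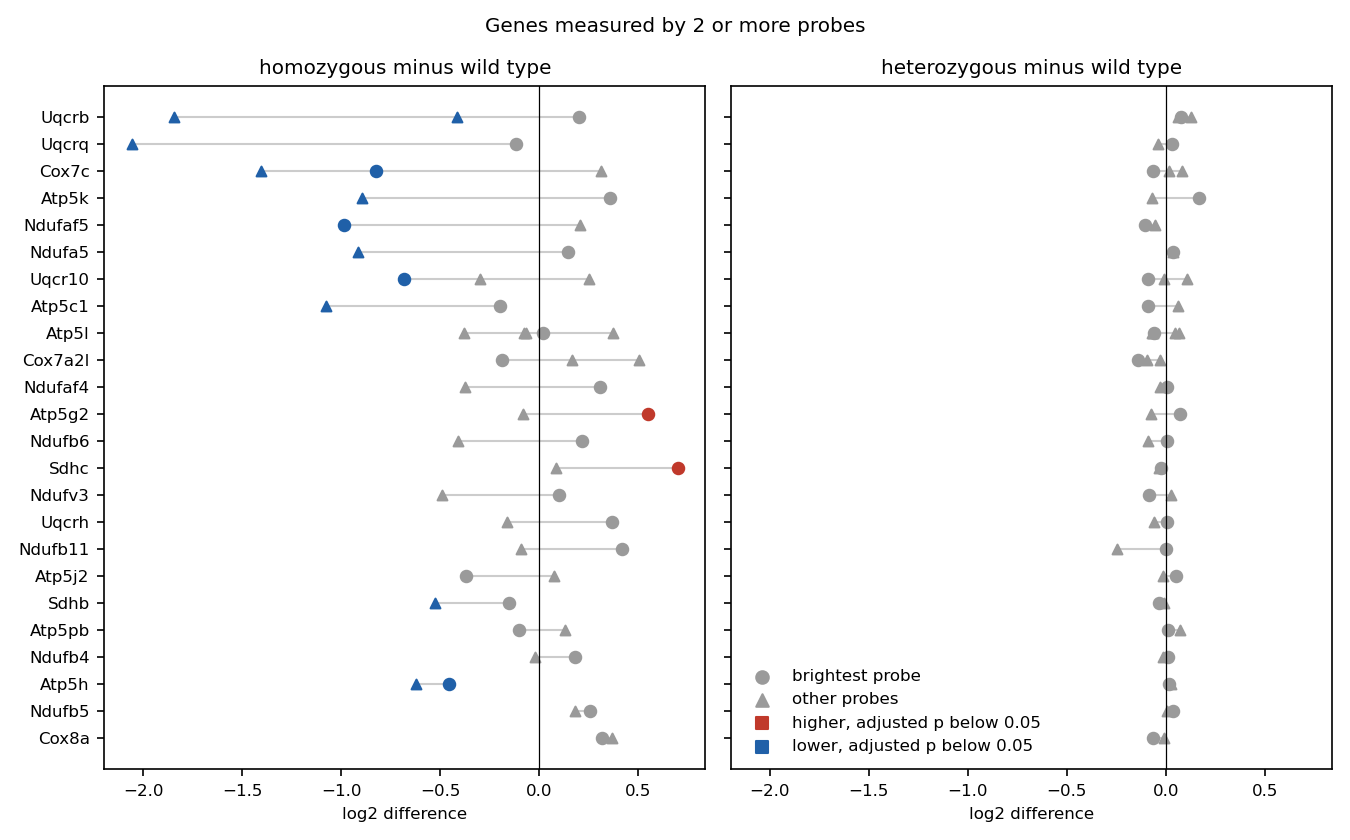
Log2 difference from wild type (horizontal axis) of every kept probe of the 24 genes with 2 or more, in homozygous embryos (left) and heterozygous embryos (right), with circles for the brightest probe and triangles for the others. In homozygous embryos the probes of a gene spread over up to 2.04 units, whereas in heterozygous embryos the spread is at most 0.25.

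Embryos of the same genotype were offset from each other over many of the 91 genes. Homozygous embryo 1 lay above homozygous embryo 2 in 71 of 91 genes (78%), against 56.1% of all genes tested, and the median of embryo 1 minus embryo 2 was 0.20, against 0.05 for all genes. Heterozygous embryo 1 also lay above heterozygous embryo 2 in 71 genes (78%), against 59.7% of all genes, and wild-type embryo 1 above wild-type embryo 2 in 28 (30.8%), against 52%. Taken without sign, the gap between the 2 embryos had a median of 0.22 in homozygous embryos (0.25 for all genes), 0.09 in heterozygous embryos (0.17) and 0.07 in wild-type embryos (0.11). Measured from the wild-type mean, the median of the 91 genes was 0.11 in homozygous embryo 1 and −0.10 in homozygous embryo 2, whereas the median of all genes was 0.08 and 0.06. The 2 heterozygous embryos stood at 0.02 and −0.03 and the 2 wild-type embryos at −0.02 and 0.02. Cox5b, for example, read 4.07 and 3.51 in homozygous embryos, 4.13 and 4.08 in heterozygous embryos and 4.09 and 4.10 in wild-type embryos. The median difference of the 91 genes depended on 1 array: without homozygous embryo 1 it was −0.10, and with both it was 0.04.

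**Figure D4:**
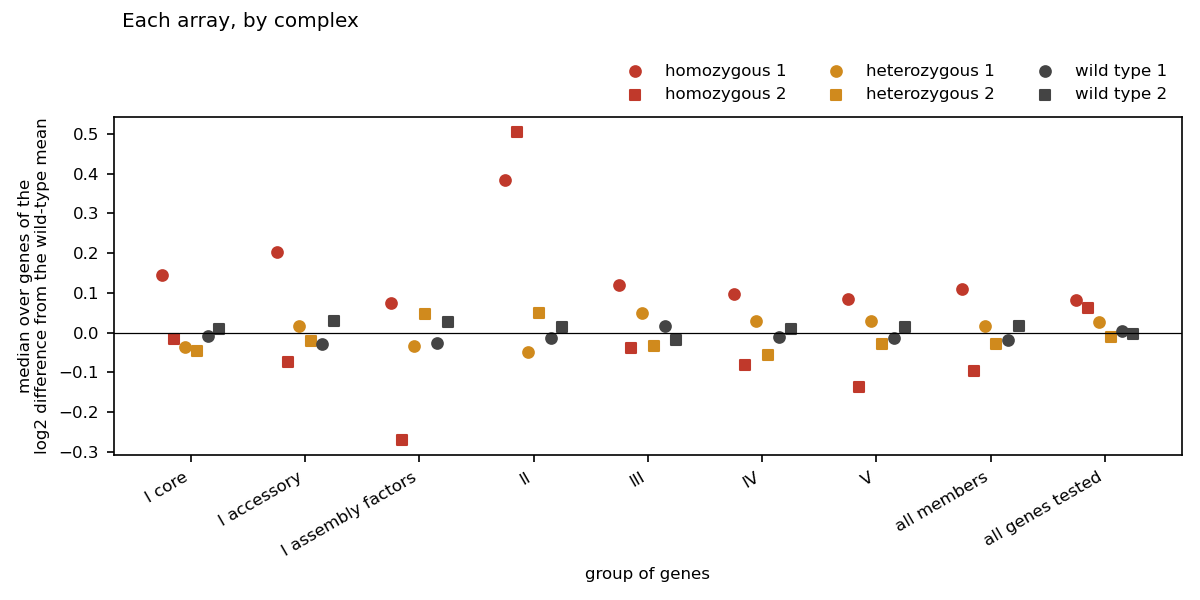
Median over genes of the log2 difference from the wild-type mean (vertical axis) on each of the 6 arrays, for each complex, for all 91 genes and for all genes tested (horizontal axis). Homozygous embryo 1 lies above homozygous embryo 2 in every group but complex II, and the heterozygous and wild-type arrays lie near 0.

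Genes that work with the respiratory chain, and the complex III subunit Cyc1, were taken from lists outside the rule. Each is given by its brightest probe alone. Their counts stand beside 14.3% higher and 14.7% lower among all genes tested. In complex IV assembly 5 of 20 genes were lower and 1 higher in homozygous than in wild-type embryos, together 30%, against 29% of all genes. Cox17, a copper chaperone, read −2.95 and −4.56 in homozygous embryos, −0.80 and −0.98 in heterozygous embryos and −1.07 and −1.16 in wild-type embryos. It fell by 2.64 ± 0.47 (adjusted p = 0.0107), and the homozygous embryos were far below the rest but also far apart from each other. The homozygous signal of Cox17 was dim, and the part of background in its fall was not tested. Cox10, which makes the haem of the enzyme, fell by 1.37 ± 0.14 (adjusted p = 0.00187), Coa6, known to help load copper, by 1.16 ± 0.16, Sco1, which delivers copper, by 0.79 ± 0.12 and Cox20 by 0.77 ± 0.17, while Coa4 rose by 0.48 ± 0.12. The signal of Cox10 was dim, at −5.76 and −5.59 in homozygous embryos and −4.22 and −4.40 in wild-type embryos, and the part of background in its fall was not tested. The median of the list was −0.07.

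Of the other assembly lists, complex II had 1 of 4 genes higher, Sdhaf2, the factor that adds the flavin to Sdha, at 0.49 ± 0.12, and 1 lower, Sdhaf3, at −0.87 ± 0.14. In complex III 1 of 6 rose, Bcs1l, which inserts the Rieske protein, by 0.57 ± 0.13. None of 10 complex I assembly genes outside the rule passed the test in limma, with 2 at an unadjusted p below 0.05. Among 3 ATP synthase factors, Atpaf2, a chaperone of the α subunit, rose by 0.98 ± 0.13, and Atpif1, the inhibitor that stops the enzyme from running backwards, read 5.36 and 5.17 in homozygous embryos, 4.41 and 4.48 in heterozygous embryos and 4.56 and 4.48 in wild-type embryos and rose by 0.75 ± 0.13 (adjusted p = 0.0101). Cytochrome c, Cycs, and cytochrome c1, Cyc1, differed by 0.40 and −0.14 and did not pass. Cyc1 is a subunit of complex III, but its symbol falls outside the rule, so it was not counted with that complex. Of 9 carriers and channels, Slc25a5 and Slc25a4, which exchange ADP and ATP, rose by 0.56 ± 0.13 and 0.49 ± 0.13, and Slc25a3, the phosphate carrier, and Mpc2, of the pyruvate carrier, fell by 0.80 ± 0.15 and 1.09 ± 0.15.

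**Figure D5:**
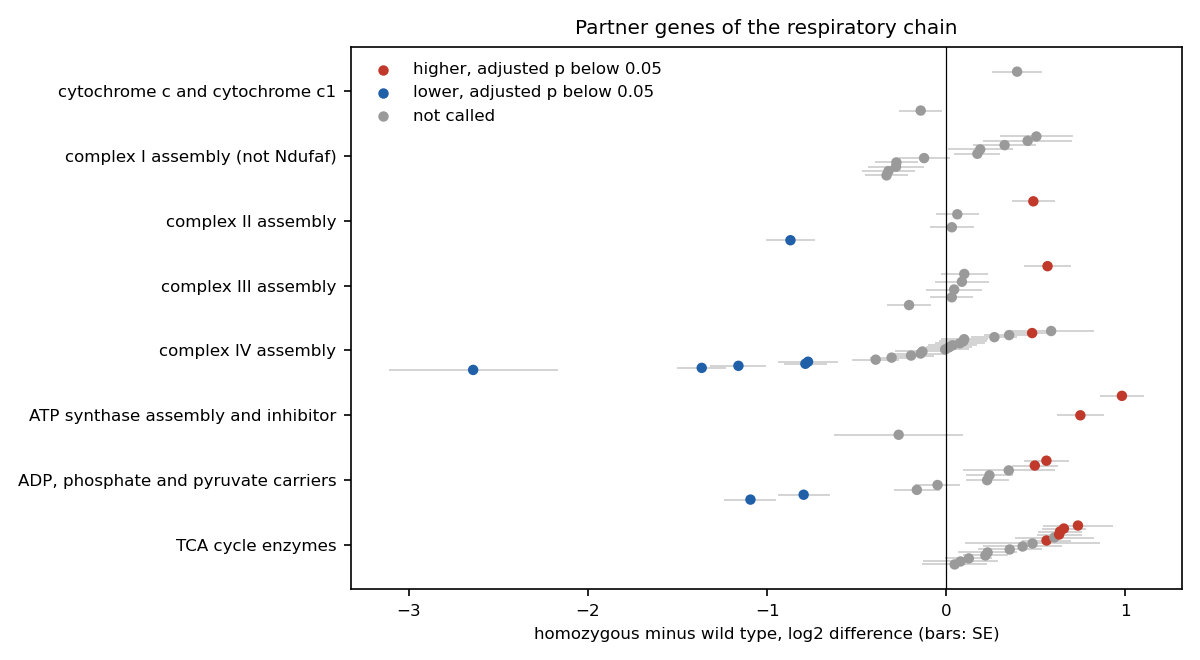
Log2 difference between homozygous and wild-type embryos (horizontal axis, bars are SE) of genes in 8 lists outside the rule (vertical axis), with red and blue marking genes that passed the test as higher or lower. The means of the TCA cycle enzymes all lie above 0, with homozygous and wild-type arrays overlapping in 4 of these 14 genes, and complex IV assembly holds the lowest value, Cox17 at −2.64.

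Markers of cell types in the embryo were all measured, except placenta markers, of which 2 were kept. Some were dim, such as Myf5, at −4.58 and −5.89 in homozygous embryos and −3.37 and −3.56 in wild-type embryos. Acta1 had no value in homozygous embryo 1, so its homozygous difference rests on embryo 2. Stat3 read 1.39 and 1.1 in homozygous embryos, 1.07 and 0.82 in heterozygous embryos and 0.82 in each wild-type embryo, a difference of 0.43 ± 0.16 from wild type that did not pass (adjusted p = 0.0882), and a change of residues is no check on its transcript. Beside the 14.3% of all genes that were higher and 14.7% that were lower against wild type in homozygous embryos, 2 of 6 fetal hepatocyte markers rose, Afp and Apoa2, 1 of 4 macrophage markers rose, Cx3cr1, and 1 of 5 neuron markers fell, Elavl3. Of 8 cardiomyocyte markers Actc1 rose and Tnnt2 and Tnni3 fell, and of 8 skeletal muscle markers Ckm and Myog rose and Myf5 fell. None of 5 neural progenitor or 6 erythroid markers passed in limma, with 2 and 0 at an unadjusted p below 0.05, and of 2 placenta markers Prl3d1 rose and Gcm1 fell. The mean level of hepatocyte markers was 3.83 and 3.74 in homozygous embryos and 3.35 and 3.25 in wild-type embryos, and that of cardiomyocyte markers 1.00 and 0.54 in homozygous embryos and 1.09 and 0.81 in wild-type embryos. The part of these cell types in the respiratory gene differences was not tested.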

How the data were processed

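Intensity values were read from the deposited scanner output, which per the file headers came from Agilent Feature Extraction 11.0.1.1 with background subtraction and detrending on the array and no scaling between arrays. The log2 table that the authors deposited beside it has a median of 6.73 in every array (r of 0.995 to 0.999 with the intensities of the same array), and how it was normalized is not given in the sources used here. It served as an alternative.

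Control and outlier spots were left out, spots of 1 probe were averaged, and log2 values were taken relative to the 75th percentile of the array. A probe was kept (29905 of 39429) where any genotype had it well above background on both of its arrays. Names came from probe accessions through a RefSeq table of GRCm38.p6, which named 27234 probes, while the array was annotated to mm9. The kept probe with the highest mean over all 6 arrays, called the brightest, stood for a gene. All 6 arrays were fitted by genotype with limma 3.58.1 in R 4.3.3 (3 residual and 3.33 prior degrees of freedom), and errors after ± are SE. The fit was tested on simulated data.

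The members and lists were chosen with earlier results of these data known. Genes were named by rule: up to 8 calls a direction with arrays that did not overlap (4 in the other comparisons), the smallest p of each complex, isoform partners, Ndufa13, Stat3 and up to 3 members of each other list. Other members and probes were named after their values were seen, to account for the calls, and 2 single-gene results are not reported here. Replicate numbers were not taken to pair the samples. Replicate differences correlated at 0.254 between homozygous and heterozygous, −0.16 between homozygous and wild-type and 0.00656 between heterozygous and wild-type embryos. Such values cannot show whether the numbers pair the samples. Alternatives covered background correction, normalization, filters, choice of probe, samples, a replicate block, the variance prior and leaving out each array.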

Additional observations from a re-analysis of the deposited data

How the results depend on the processing

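Over 18 alternative settings, no respiratory gene passed in heterozygous against wild-type embryos. The 23 genes that passed in homozygous against wild-type embryos became 35 (22 higher, 13 lower) after normexp background correction with quantile normalization. Their share of 38.5% there lay above the 30% of all genes, while 25.3% lay below 29% as reported. An intensity trend in the variance gave 30 genes (33%, against 31.2% of all genes). With no filter on dim probes 10 passed (10.8%, against 18%), and with only the 2 genotypes in the fit 13 (14.3%, against 22.5%). With the second brightest probe 5 of 24 genes passed (20.8%, against 21.9%). The count also moved when 1 array was left out, where a lone array is assumed to vary like the other genotypes. The 15 genes of homozygous against heterozygous embryos (16.5%, against 24% of all genes) became 29 after normexp correction (31.9%, against 46.6%). They became 31 with normexp and quantile normalization (34.1%, against 26.3%) and 27 with an intensity trend in the variance (29.7%, against 26.7%). With no filter 9 passed (9.68%, against 14.7%), and with only the 2 genotypes 6 (6.59%, against 13%). With the second probe 6 passed (25%, against 17.3%). The share of these genes thus lay below that of all genes as reported and above it in some settings. The count also moved with 1 array left out. With the replicate number as a block, 18 and 15 genes passed in these comparisons (19.8% and 16.5%, against 28.1% and 22.9% of all genes), and 0 in the third. Whether the numbers pair the samples is not known. The median difference of homozygous from wild-type embryos, 0.04, was −0.13 with the second probe and ran from −0.096 to 0.11 with 1 array left out, and that from heterozygous embryos, 0.02, ran from −0.080 to 0.13. Normexp correction moved the median of all genes from 0.08 to 0.19 against wild type and from 0.07 to 0.24 against heterozygous embryos. For a called difference of a named gene, direction changed only with the second brightest probe: against wild type Atp5g2 read −0.0836, Ndufaf5 0.21, Cox7c 0.31 and Atp5k −0.90, and against heterozygous embryos Ndufaf5 read 0.26, Cox7c 0.30 and Atp5k −0.83. The cause was not tested. Uncalled differences changed sign 64 times. Single-gene values otherwise stayed on the same side of the threshold 493 times, lost a call 65 times and gained one 8 times against wild type, and 493, 55 and 19 times against heterozygous embryos.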

Other observations

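Enzymes of the TCA cycle, which supply the NADH and succinate that complexes I and II oxidise, had higher means in homozygous than in wild-type embryos. The 14 measured genes had differences between 0.05 and 0.74 with a median of 0.45, against 0.08 for all genes tested, and 5 rose in limma's test while none fell (35.7%, against 29% of all genes in either direction and 14.3% higher). Mdh2, malate dehydrogenase, read 4.82 in each homozygous embryo, 4.16 in each heterozygous embryo and 4.09 and 4.23 in wild-type embryos, and rose by 0.66 ± 0.12 (adjusted p = 0.0122). Idh3g and Idh3a, of isocitrate dehydrogenase, rose by 0.63 ± 0.13 and 0.74 ± 0.20, and Sucla2, of succinyl-CoA ligase, by 0.56 ± 0.14. Both homozygous arrays lay above both wild-type arrays in 10 of the 14 genes, where 39.5% of all genes did. The arrays of Fh1, fumarase, overlapped, at 1.71 and 1.73 in homozygous embryos and 1.88 and 0.60 in wild-type embryos, so its higher mean rests on wild-type embryo 2. The slide cannot be told apart from the homozygous genotype here either. These genes are given by their brightest probe alone, and over all genes with 2 or more probes the 2 brightest differed in the same direction in 54.1%.

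Of 13 factors that act on mitochondrial DNA and its transcripts, 2 rose, 3 fell and 8 did not pass in homozygous against wild-type embryos, beside 14.3% higher and 14.7% lower among all genes tested. Mterf1a, of the family that binds the mitochondrial transcription terminator, rose by 1.14 ± 0.13 (adjusted p = 0.00236) and Polg, the catalytic subunit of the mitochondrial DNA polymerase, by 0.91 ± 0.18 (adjusted p = 0.0135). Mterf4, needed for mitochondrial ribosomes, fell by 1.50 ± 0.15 (adjusted p = 0.00179), Twnk, the helicase, by 0.79 ± 0.21, and Slirp, which stabilises mitochondrial transcripts, by 0.64 ± 0.16. Of 10 nuclear regulators of these genes 3 rose, 1 fell and 6 did not pass, beside the same shares of all genes. Nrf1, the factor named by the NRF-1 motif, read 0.72 and 0.60 in homozygous embryos, 0.10 and −0.03 in heterozygous embryos and 0.01 and −0.32 in wild-type embryos, and rose by 0.82 ± 0.16 (adjusted p = 0.013). Gabpb1, a subunit of GABP, rose by 0.52 ± 0.12 and Ppara by 0.78 ± 0.16, and Ppargc1b, a coactivator, fell by 1.49 ± 0.20 (adjusted p = 0.00461). The signal of Ppargc1b was dim, at −5.85 and −6.23 in homozygous embryos and −4.47 and −4.63 in wild-type embryos. The part of background in its fall was not tested. Genes of both lists are given by their brightest probe alone.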
